A study of Mus musculus with 20 samples.

Results

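The 36 genes described here encode the machinery that prepares antigens and displays them on the cell surface, and were chosen by symbol from the 14793 genes of the deposited table, where all 36 were found. They comprise 23 genes of the major histocompatibility complex (MHC) class I pathway, 12 genes of the class II pathway and Cd1d1, which presents lipids. The data are bulk RNA sequencing of the right knee joints of 20 male C57BL/6Nci mice. At 12 weeks of age every mouse had undergone surgical destabilization of the medial meniscus (DMM), a model of osteoarthritis. Control mice received needle insertion alone. The other 3 groups received 250000 adipose-derived mesenchymal stromal cells (MSC) into the joint per injection, in weeks 3 and 5 after surgery. In the MSC group these cells were not activated. In the TLR3-MSC group they had been activated for 2 h with 10 µg/mL of the TLR3 agonist pIC, and in the STING-MSC group for 2 h with 10 µg/mL of the STING agonist 2′3′-cGAMP. Each group had 5 joints, taken as biological replicates from groups of 10 mice. All injected cells came from 1 pool of male donor mice, so the groups compare preparations of the same cells. The tissue was taken as a whole and held cartilage, synovium, joint capsule and subchondral bone, so that fewer cells of a type and less RNA per cell cannot be told apart. The methods place collection in week 8 after surgery, while another passage places it shortly after an injection.

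MHC class I molecules sit on nearly all nucleated cells and show peptides cut from proteins made inside the cell to CD8+ T cells. The proteasome, in inflamed tissue its immunoproteasome form, cuts the peptides, the TAP transporter moves them into the endoplasmic reticulum, and chaperones load them onto a heavy chain paired with beta-2-microglobulin. MHC class II molecules are largely restricted to B cells, dendritic cells and macrophages and show peptides from engulfed proteins to CD4+ T cells, with the invariant chain Cd74 guarding the groove until H2-DM exchanges it for peptide. NLRC5 and CIITA are the transactivators of class I and class II genes, are themselves induced by interferon-gamma, and act through a shared promoter module of X and Y boxes.

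Letters of the promoter module were searched in the reference sequence, and the stretches below lie before the annotated starts of class I and class II members. Sequences came from the RefSeq promoter table (GRCm38.p6), in which 29 of the 36 members were matched. H2-Ab1, Cd74, Ciita, Nlrc5, Tap2, Tapbpl and Cd1d1 were not matched. Each line gives 130 bases that end at the last base before the annotated start. Capitals mark GATTGG (letters of the Y box core, also read as its complement on the other strand) and ACNGATG (part of the X box, both strands). They mark letter matches only, and the stretches of H2-Aa, H2-K1 and B2m hold no X match. The class II stretches are H2-Eb1 (chr17:34305737-34305866, plus strand), H2-DMb1 (chr17:34153061-34153190, plus strand), H2-DMb2 (chr17:34145119-34145248, plus strand) and H2-Aa (chr17:34287824-34287953, minus strand). The class I stretches are H2-D1 (chr17:35262964-35263093, plus strand), H2-Q4 (chr17:35379487-35379616, plus strand), H2-Q6 (chr17:35424720-35424849, plus strand), H2-Q7 (chr17:35439025-35439154, plus strand), H2-K1 (chr17:34000334-34000463, minus strand) and B2m (chr2:122147557-122147686, plus strand).
H2-Eb1: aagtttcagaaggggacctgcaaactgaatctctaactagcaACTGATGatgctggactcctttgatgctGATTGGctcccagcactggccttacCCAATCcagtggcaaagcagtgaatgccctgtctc
H2-DMb1: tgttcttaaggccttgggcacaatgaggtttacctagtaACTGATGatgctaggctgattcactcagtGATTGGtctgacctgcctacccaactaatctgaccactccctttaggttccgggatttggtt
H2-DMb2: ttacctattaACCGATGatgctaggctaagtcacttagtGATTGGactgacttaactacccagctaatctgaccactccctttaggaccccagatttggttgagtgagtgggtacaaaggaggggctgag
H2-Aa: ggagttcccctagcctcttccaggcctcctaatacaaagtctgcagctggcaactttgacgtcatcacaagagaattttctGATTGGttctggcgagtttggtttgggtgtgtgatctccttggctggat
H2-D1: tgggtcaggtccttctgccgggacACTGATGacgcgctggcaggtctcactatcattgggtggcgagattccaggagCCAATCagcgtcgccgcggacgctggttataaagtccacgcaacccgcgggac
H2-Q4: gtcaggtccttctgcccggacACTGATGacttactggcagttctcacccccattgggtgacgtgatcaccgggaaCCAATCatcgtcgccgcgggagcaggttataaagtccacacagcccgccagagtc
H2-Q6: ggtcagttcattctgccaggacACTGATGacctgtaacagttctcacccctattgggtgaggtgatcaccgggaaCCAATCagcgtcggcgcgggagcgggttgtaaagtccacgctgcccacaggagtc
H2-Q7: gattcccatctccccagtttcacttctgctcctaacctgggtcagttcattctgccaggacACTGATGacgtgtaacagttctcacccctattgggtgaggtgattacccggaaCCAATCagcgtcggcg
H2-K1: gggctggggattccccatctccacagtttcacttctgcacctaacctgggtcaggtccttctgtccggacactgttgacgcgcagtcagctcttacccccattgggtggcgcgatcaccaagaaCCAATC
B2m: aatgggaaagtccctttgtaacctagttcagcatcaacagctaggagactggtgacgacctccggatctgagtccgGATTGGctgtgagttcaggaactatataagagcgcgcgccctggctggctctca

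Over the whole 300-base windows, GATTGG was found in 19 of the 29 matched members and in 16.11% of the 32851 windows in the table. It was in 12 of 20 class I and 7 of 9 class II members. ACNGATG was in 13 of 29 members and in 9.851% of all windows. Both were found in 9 members, namely H2-Aa, H2-Eb1, H2-DMb1, H2-DMb2, H2-Oa, H2-D1, H2-Q4, H2-Q6 and H2-Q7, against 1.516% of all windows. From the start of the X match to the start of the nearest GATTGG match after it there were 28 bases in H2-Eb1, 29 in H2-DMb1 and H2-DMb2, and 53 or 54 in H2-D1, H2-Q4, H2-Q6 and H2-Q7. This distance depended on the letters searched. The shorter letters ATTGG, which lie inside GATTGG and were looked for after these matches had been seen, occur in 37.41% of all windows (both strands). They start 29 or 30 bases after the start of the X match in 7 of the 9 members, namely the class II genes H2-Eb1, H2-DMb1 and H2-DMb2 and the class I genes H2-D1, H2-Q4, H2-Q6 and H2-Q7. In these class I genes that ATTGG is in lower case in the stretches shown, and the capitals mark a later match. In H2-Oa and H2-Aa the nearest ATTGG starts 94 and 184 bases after the X match, which lies outside the stretch shown for H2-Aa. The H2-K1 and B2m windows hold the Y letters without the X letters. GAAANNGAA, from an interferon response element, was in 6 members and 8.56% of windows. These matches describe letters in a window and are no measure of binding. Of the 36 genes, 21 lie on chromosome 17 between 34134873 and 37585376 (GRCm39, as deposited).

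The libraries held 27955496 to 52529972 reads, recovered from the deposited values, and the members ranged from 31.5 normalized counts (H2-Oa) upward with none listed at 0, so counting error was small for most of them. In MSC replicate 5, 296 genes were listed at 0 and in STING-MSC replicate 5 97 genes, against at most 42 in any other joint. STING-MSC replicate 3 stood apart in the genes described here. It held the highest value of the 20 joints for 27 of the 36 members (75.0%), against 362 of the 14793 genes in the table (2.45%). Differences of members that involve the STING-MSC group are therefore given with and without it. Annotated neighbours lay on the same span for some members, Tap1 with Psmb9, H2-DMa with Brd2, Erap1 with Cast and Ciita with Dexi. The same held for Pdia3 with Catsper2, Psme1 with Emc9, Tapbp with Zbtb22 and Tapbpl with Vamp1. These members are uncertain, since strand use in the counting is not given in the sources used here. The similar genes H2-Q6 and H2-Q7, and H2-DMb1 and H2-DMb2, are also uncertain. How reads that match both copies were counted is not given either.

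**Figure D1:**
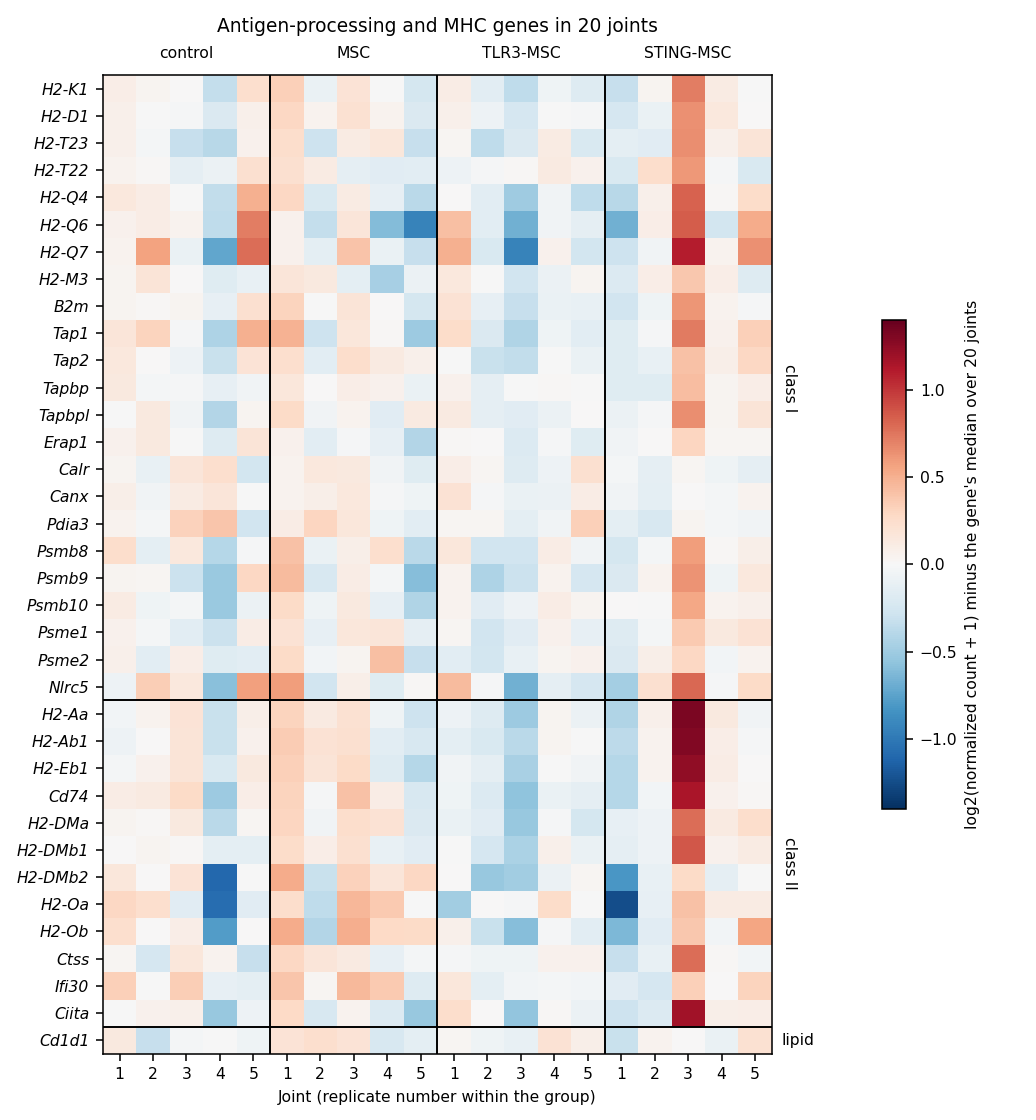
Heatmap of the 36 genes (rows, class I above class II above Cd1d1) in the 20 joints (columns, replicate numbers within groups), coloured by log2(normalized count + 1) minus the gene's median over the joints. STING-MSC replicate 3 is the highest joint for 27 genes, and control replicate 4 and TLR3-MSC replicate 3 are the lowest for 7 and 13.

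Levels of different genes are comparable only per length, so mean normalized counts over the 20 joints were divided by the merged exon length in kb. On this scale the class I heavy chain H2-D1 stood at 13611 per kb, its light chain B2m at 12896 and the heavy chain H2-K1 at 7019. Cd74 followed at 5176 and Calr, the chaperone calreticulin, at 5123. The class II chains H2-Ab1, H2-Eb1 and H2-Aa stood at 2803, 2204 and 1543 per kb. Their merged lengths were 2.568, 2.596 and 4.292 kb, and their mean counts in control joints 6713, 5539 and 6276. This order therefore depends on the merged length, which holds every annotated exon and may exceed that of the main transcript. The transactivators Nlrc5 and Ciita stood at 103 and 45.9 per kb. The lowest members were the non-classical chains H2-Q6 and H2-Q7 at 33.6 and 35.2 per kb, followed by Ciita and by H2-Oa, a chain of the H2-DM inhibitor, at 49.8.

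Few members differed between groups, and none passed a false discovery rate (FDR) of 0.05. Each gene's log2(normalized count + 1) was compared in limma across the 20 joints, and a gene was called at an unadjusted p of at most 0.05. Across 6 comparisons of 36 members, 2 of 216 tests were called (0.926%), against 5.96% of the tests over all genes. The 2 calls were Tap2, lower in TLR3-MSC than in MSC joints, and H2-DMa, higher in STING-MSC than in TLR3-MSC joints. In the F test across the 4 groups 0 of 36 members and 6.42% of all genes were called, the smallest member p being 0.0867, for H2-DMa. At the FDR threshold limma, edgeR and DESeq2 each called 0 members in every comparison. In limma that threshold was passed by 0.00676% of all genes for MSC against control and by 0.0% in the other 5 comparisons, in edgeR by 0.0% to 0.101% and in DESeq2 by 0.0135% to 0.73%. The 95% intervals of the 216 differences reached a median of 0.321 to either side on the log2 scale (range 0.149 to 0.637), and 213 of them lay within a 2-fold difference either way.

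Against the control joints 0 members were called in any treated group, and the class medians were small. Of all genes, 5.64% were called higher and 2.91% lower in MSC joints, 2.68% and 0.906% in TLR3-MSC joints, and 6.54% and 5.69% in STING-MSC joints. The median difference of the 23 class I genes was 0.01 in MSC, −0.04 in TLR3-MSC and 0.08 in STING-MSC joints on the log2 scale, and that of the 12 class II genes was 0.12, −0.10 and 0.16. The medians of all genes were −0.04, −0.01 and 0.01. Single joints moved these medians. Without STING-MSC replicate 3 the STING-MSC medians were −0.036 for class I and −0.054 for class II, and without STING-MSC replicate 1 they were 0.187 and 0.292. The MSC median of class I was −0.03 without MSC replicate 1 and 0.083 without MSC replicate 5, and that of class II was 0.061 without control replicate 4 and 0.185 without MSC replicate 5. The TLR3-MSC median of class I was −0.084 without control replicate 4 and −0.01 without TLR3-MSC replicate 3, and that of class II was −0.205 and −0.035 without the same joints. The 3 comparisons share the same control joints.

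**Figure D2:**
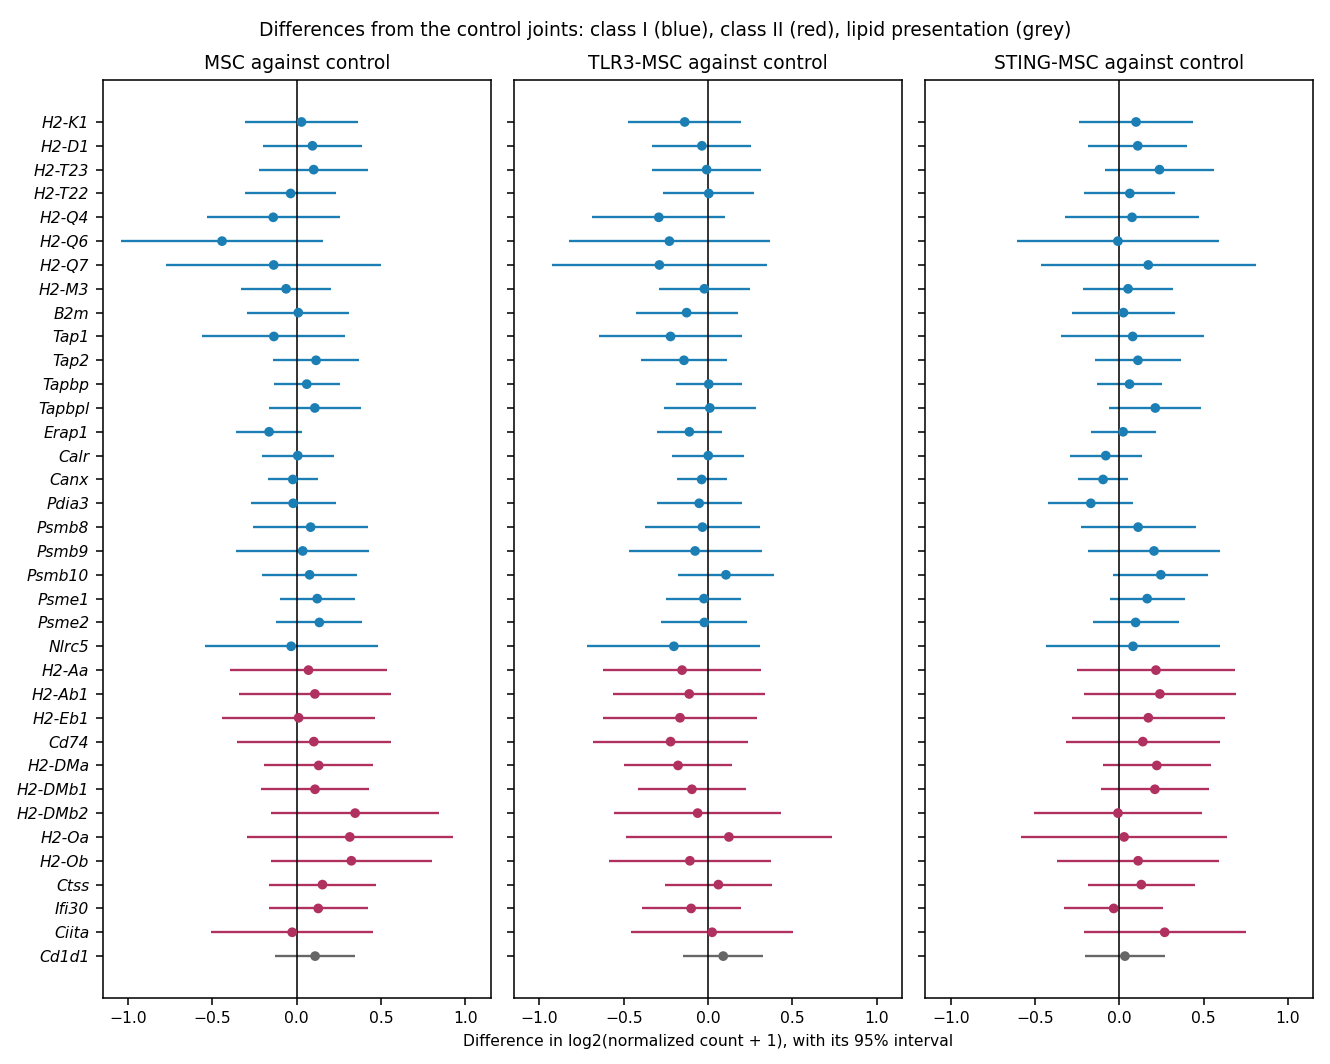
Difference of each treated group from the control joints for the 36 genes (points, log2 scale, limma) with 95% intervals (lines), class I in blue, class II in red and Cd1d1 in grey. Every interval in the 3 panels includes 0, and they span from −1.04 (H2-Q6, MSC) to 0.93 (H2-Oa, MSC).

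No class I heavy chain was called between groups. The normalized counts of H2-K1, a classical heavy chain, were 23383, 22534, 21997, 17438 and 25816 in the control joints, 27648, 20612, 24967, 21832 and 18526 in the MSC joints, 23599, 19792, 17099, 20959 and 19307 in the TLR3-MSC joints, and 17531, 22538, 35969, 23718 and 21823 in the STING-MSC joints. STING-MSC replicate 3 was the highest and TLR3-MSC replicate 3 the lowest, and the groups overlapped. Means were 22234 ± 3054 in the control joints, 22717 ± 3611 in the MSC joints, 20151 ± 2382 in the TLR3-MSC joints and 24316 ± 6920.1 in the STING-MSC joints (SD, n = 5 each), and the difference of STING-MSC from control was 0.10 (95% interval -0.24 to 0.44) on the log2 scale. H2-D1, the other classical heavy chain, had counts of 41680.3, 39450.2, 39185, 34306 and 41772 in the control joints, 48476, 40876, 45820.4, 40908 and 34356 in the MSC joints, 41529, 37735, 33603, 39452 and 39179 in the TLR3-MSC joints, and 33594, 37195, 61566, 44036 and 39778 in the STING-MSC joints. Its difference of STING-MSC from control was 0.11 (95% interval -0.18 to 0.40) and that of MSC from control 0.09 (95% interval -0.20 to 0.39). Without STING-MSC replicate 3 the STING-MSC difference from control was −0.05 for H2-K1 and −0.03 for H2-D1. B2m, the shared light chain, had counts of 27309, 26772, 27151, 24592 and 31029 in the control joints, 33002, 26381, 30031, 26683 and 22420.5 in the MSC joints, 30572, 24481, 21239, 24926 and 24607 in the TLR3-MSC joints, and 21968, 25531, 40746, 27454 and 26282 in the STING-MSC joints. Here too STING-MSC replicate 3 stood above the other 19 joints and the groups overlapped. MSC, TLR3-MSC and STING-MSC differed from control by 0.01, −0.13 and 0.02, and STING-MSC by −0.11 without replicate 3. Among the non-classical chains, H2-T23 (Qa-1), a ligand of NK cell receptors, ranged from 4335 to 8868, H2-T22, a ligand of gamma-delta T cells, from 1667 to 2960.5, and H2-M3, which presents formylated peptides, from 406 to 730.0. H2-Q4 ranged from 1509.5 to 3771. H2-Q6 (59 to 205) and H2-Q7 (71.1 to 293) had the widest spread of the class I members, with a within-group SD of 0.468 and 0.505 on the log2 scale.

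The peptide supply for class I held 1 of the 2 calls. Tap2, a subunit of the peptide transporter, had counts of 1432, 1291, 1230.3, 1036 and 1467 in the control joints, 1513, 1163, 1534, 1407 and 1356 in the MSC joints, 1283, 1038, 1015, 1286 and 1212 in the TLR3-MSC joints, and 1143, 1199.9, 1712, 1368 and 1577 in the STING-MSC joints. Means were 1291 ± 173 in the control joints, 1394 ± 149 in the MSC joints, 1167 ± 132 in the TLR3-MSC joints and 1400.2 ± 243 in the STING-MSC joints (SD, n = 5 each). Tap2 was lower in TLR3-MSC than in MSC joints by a log2 difference of -0.26 (95% interval -0.51 to -0.00) (limma p = 0.0488, FDR = 0.978, exact permutation p = 0.0476, smallest possible 0.00794), with 1 of 36 members called lower against 1.99% of all genes, and 0 called higher against 1.89%. The groups overlapped, since MSC replicate 2 lay below 3 of the 5 TLR3-MSC joints. Without STING-MSC replicate 3, which is in neither group but in the estimate of the spread, Tap2, Cd74 and H2-DMa were called lower in this comparison, 3 of 36 against 3.62% of all genes called in either direction. The Tap2 call was lost when 11 of the 20 joints were left out singly, with p between 0.0508 and 0.121. Tap1, the partner subunit, had counts of 2655, 2922, 2329.9, 1743 and 3328 in the control joints, 3304, 1919, 2619.7, 2379 and 1659 in the MSC joints, 2810.0, 2042, 1762, 2263 and 2120.3 in the TLR3-MSC joints, and 2087, 2324, 3913, 2453 and 2963 in the STING-MSC joints. Its difference for the same comparison was -0.09 (95% interval -0.51 to 0.34). Tapbp (tapasin, 4348 to 6606) and Tapbpl (TAPBPR, 440.2 to 919.7), which edit the bound peptide, and Erap1 (1159 to 1889.5), which trims peptides, were highest in STING-MSC replicate 3. Erap1 differed by 0.19 (95% interval -0.01 to 0.38) between STING-MSC and MSC joints (limma p = 0.058, exact permutation p = 0.0952), and by 0.13 without STING-MSC replicate 3 (limma p = 0.182). The general chaperones Calr, Canx and Pdia3 varied little, with highest over lowest joint ratios of 1.41, 1.26 and 1.59, and STING-MSC replicate 3 ranked 10, 10 and 8 among the 20 joints.

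No immunoproteasome gene was called in any comparison. Psmb9, a catalytic subunit, had counts of 1424, 1406, 1119.7, 961 and 1688 in the control joints, 1876, 1183, 1489, 1359 and 915 in the MSC joints, 1429, 1027, 1125, 1436 and 1175 in the TLR3-MSC joints, and 1198, 1431, 2134, 1327 and 1528 in the STING-MSC joints. STING-MSC replicate 3 and MSC replicate 1 were the highest and MSC replicate 5 the lowest, so the MSC joints spanned most of the range. Psmb8 (725 to 1437) and Psmb10 (1064 to 2235), the other catalytic subunits, and the activator subunits Psme1 (2491 to 3953) and Psme2 (568 to 952) had ranges that overlapped between all groups. Psmb10 had the smallest p of the members against control, with a STING-MSC difference of 0.25 (95% interval -0.04 to 0.53) (limma p = 0.0837, FDR = 0.476, exact permutation p = 0.111). The difference fell to 0.14 without STING-MSC replicate 3, its highest joint, with an unadjusted limma p-value of 0.278. Nlrc5, the class I transactivator, had counts of 780.2, 1041, 909, 546 and 1218 in the control joints, 1231, 679, 866, 729 and 829.6 in the MSC joints, 1117, 809, 515, 752 and 695 in the TLR3-MSC joints, and 591, 959, 1436, 811 and 985 in the STING-MSC joints. The values spread from 546 to 1218 within the control joints and from 515 to 1117 within the TLR3-MSC joints, and the within-group SD of Nlrc5 was 0.413 on the log2 scale.

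**Figure D3:**
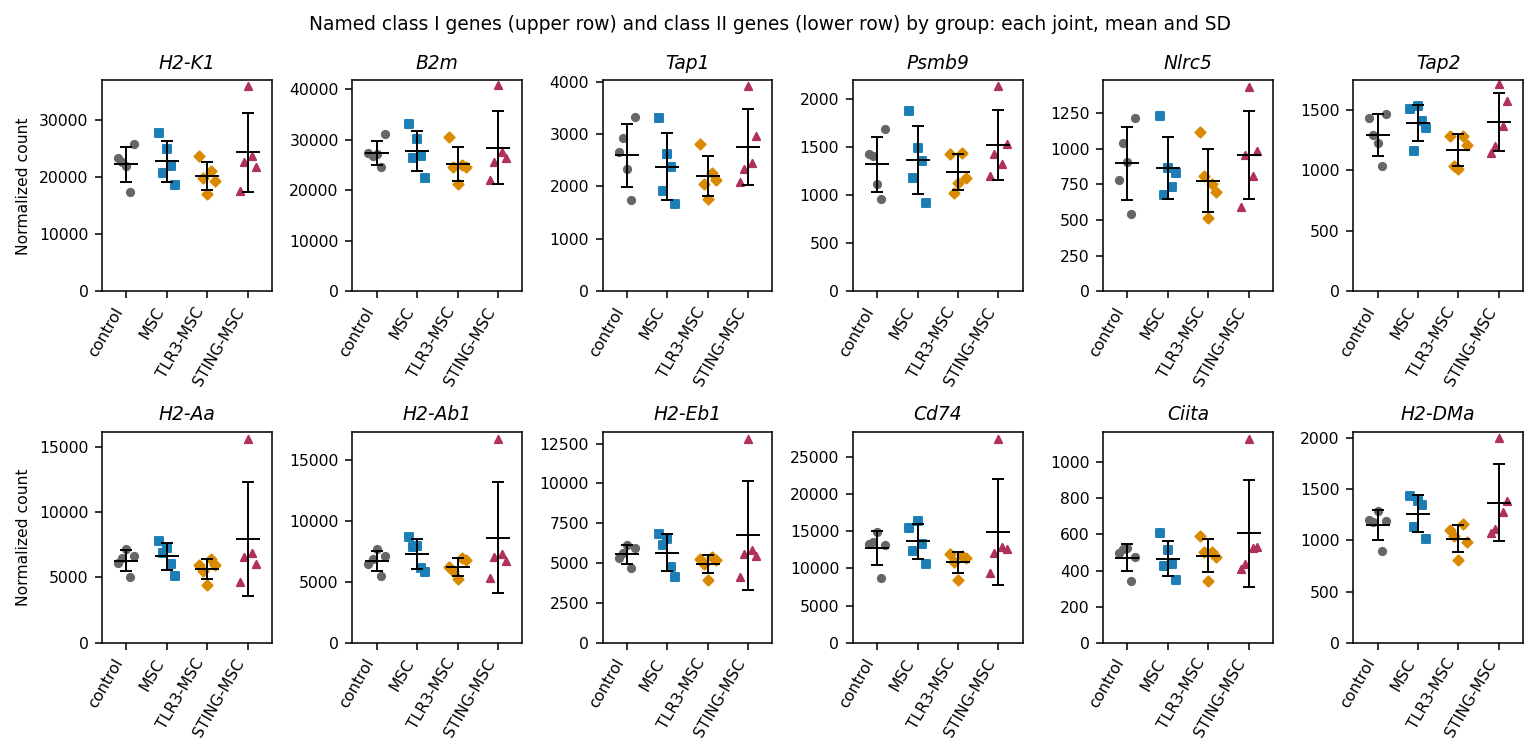
Normalized counts of 12 genes in each joint by group (points), with the mean and SD of 5 joints (bars), class I genes in the upper row and class II genes in the lower row, all axes starting at 0. The highest STING-MSC point in each panel is replicate 3, at 15568 for H2-Aa against 4398 to 7795 in the other 19 joints.

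The class II chains were led by 1 joint. H2-Aa, the alpha chain of I-A, had counts of 6105, 6472, 7157, 5041 and 6603 in the control joints, 7795, 6835, 7277, 6022 and 5135 in the MSC joints, 5975, 5516, 4398, 6420.5 and 5930.4 in the TLR3-MSC joints, and 4677, 6564, 15568, 6895 and 6060.4 in the STING-MSC joints. H2-Ab1, its beta chain, had counts of 6482, 6833, 7687, 5466 and 7096 in the control joints, 8687, 7815, 7925, 6123 and 5826 in the MSC joints, 6210.0, 5855, 5223, 6975 and 6771 in the TLR3-MSC joints, and 5291, 7059, 16656, 7276 and 6717 in the STING-MSC joints. STING-MSC replicate 3 held 2.55 and 2.46 times the median of the other 19 joints, and without it the ranges of the 4 groups overlapped. H2-Eb1, the beta chain of I-E, whose alpha chain C57BL/6 mice do not make, had counts of 5299, 5644, 6131, 4659 and 5959.5 in the control joints, 6818, 6127, 6485, 4771 and 4099 in the MSC joints, 5229.8, 4956, 3949, 5366 and 5212 in the TLR3-MSC joints, and 4091, 5583, 12772, 5821 and 5444 in the STING-MSC joints. Cd74, the invariant chain, had counts of 13320.0, 13527, 14913, 8745 and 13209.7 in the control joints, 15449.6, 12278, 16439.6, 13326 and 10624 in the MSC joints, 11914, 10829, 8396, 11668 and 11367 in the TLR3-MSC joints, and 9378, 12059, 27417, 12934 and 12544 in the STING-MSC joints. Here the same joint stood at 2.38 and 2.23 times that median. STING-MSC differed from control by 0.22 (95% interval -0.25 to 0.68) for H2-Aa, 0.24 (95% interval -0.21 to 0.69) for H2-Ab1, 0.17 (95% interval -0.28 to 0.63) for H2-Eb1 and 0.14 (95% interval -0.32 to 0.60) for Cd74. Without replicate 3 the differences were −0.06, −0.03, −0.09 and −0.11. Between TLR3-MSC and MSC joints Cd74 differed by -0.32 (95% interval -0.78 to 0.13) (limma p = 0.155, exact permutation p = 0.0635). The same difference was called with STING-MSC replicate 3 left out of the fit, at an unadjusted limma p-value of 0.0472.

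Peptide exchange held the other call. H2-DMa, a chain of the H2-DM exchange factor, had counts of 1200.4, 1178, 1287, 899 and 1191 in the control joints, 1434, 1131, 1384, 1348 and 1012 in the MSC joints, 1097, 1046, 806, 1157 and 982 in the TLR3-MSC joints, and 1074, 1109, 2004, 1274 and 1382 in the STING-MSC joints. Means were 1151 ± 147 in the control joints, 1262 ± 181 in the MSC joints, 1018 ± 135 in the TLR3-MSC joints and 1369 ± 377 in the STING-MSC joints (SD, n = 5 each). It was higher in STING-MSC than in TLR3-MSC joints by 0.40 (95% interval 0.08 to 0.72) (limma p = 0.0176, FDR = 0.89, exact permutation p = 0.0476), with 1 of 36 members called higher against 0.784% of all genes and 0 called lower against 1.78%. The groups overlapped, as TLR3-MSC replicate 4 lay above STING-MSC replicates 1 and 2. Without STING-MSC replicate 3 the difference was 0.25 and limma no longer called it (unadjusted p-value 0.0703), and without TLR3-MSC replicate 3 the limma p-value was 0.0578. In the TLR3-MSC against MSC comparison H2-DMa differed by -0.31 (95% interval -0.63 to 0.01). The unadjusted limma p-value was 0.0596 with STING-MSC replicate 3 in the fit, and 0.023 with it left out. In the STING-MSC against MSC comparison 0 members were called, against 2.77% of all genes higher and 2.17% lower. H2-DMb1 (583 to 1453), the beta chain of H2-DM, was also highest in STING-MSC replicate 3, at 1.83 times the median of the others. H2-DMb2 (221 to 683), a similar beta chain gene, and H2-Oa (31.5 to 105) and H2-Ob (559 to 1419), which form the inhibitor H2-O of B cells, were not, at 1.21, 1.34 and 1.30 times. These 3 genes were lowest in control replicate 4 or STING-MSC replicate 1. Ctss, a protease that degrades the invariant chain, ranged from 5590.1 to 12085 and stood at 1.74 times the median of the others in that joint. Ifi30 (GILT), which reduces disulfide bonds of antigens, ranged from 1513 to 2438. Cd1d1 ranged from 568 to 838, and STING-MSC replicate 3 ranked 10.

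Ciita, the class II transactivator, had counts of 496, 521, 524, 344 and 474 in the control joints, 607, 427, 516, 435 and 346 in the MSC joints, 593, 501, 341, 504 and 472 in the TLR3-MSC joints, and 408, 437, 1129, 527 and 531 in the STING-MSC joints. STING-MSC replicate 3 lay above the 341 to 607 of the other 19 joints, and the 4 groups overlapped. The difference of STING-MSC from control was 0.27 (95% interval -0.21 to 0.75), and 0.02 without replicate 3.

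Class I and class II were set side by side as the mean log2 value over the genes of each class in a joint, as a description without a test. The class I means were 11.24 ± 0.16 in control, 11.23 ± 0.19 in MSC, 11.16 ± 0.15 in TLR3-MSC and 11.32 ± 0.27 in STING-MSC joints (SD, n = 5). The class II means were 10.69 ± 0.24, 10.83 ± 0.21, 10.60 ± 0.16 and 10.83 ± 0.47 in the same order. Without replicate 3 the STING-MSC means were 11.21 ± 0.14 and 10.64 ± 0.25 (SD, n = 4). Both classes overlapped between all groups. The difference of class II minus class I within a joint was −0.55 ± 0.15 in control, −0.40 ± 0.05 in MSC, −0.55 ± 0.07 in TLR3-MSC and −0.49 ± 0.19 in STING-MSC joints. The MSC joints lay in a narrow band from −0.47 to −0.32, the TLR3-MSC joints from −0.65 to −0.47 and the control joints from −0.70 to −0.35. STING-MSC replicate 3 had the smallest gap of all joints, −0.20, and the other 4 STING-MSC joints lay from −0.73 to −0.47. Between TLR3-MSC and MSC joints the median difference was −0.22 over the class II genes, 11 of 12 being lower, and −0.11 over the class I genes, 18 of 23 being lower, against 0.03 over all genes. These medians were −0.162 and −0.025 without MSC replicate 1, and −0.303 and −0.186 without MSC replicate 5. Between STING-MSC and TLR3-MSC joints the medians were 0.28 for class II and 0.15 for class I, against 0.02 over all genes, and without STING-MSC replicate 3 they were 0.08 and 0.05, and without STING-MSC replicate 1 0.381 and 0.236. Between STING-MSC and MSC joints they were 0.07 and 0.10, −0.17 and −0.03 without STING-MSC replicate 3, and 0.173 and 0.171 without STING-MSC replicate 1.

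**Figure D4:**
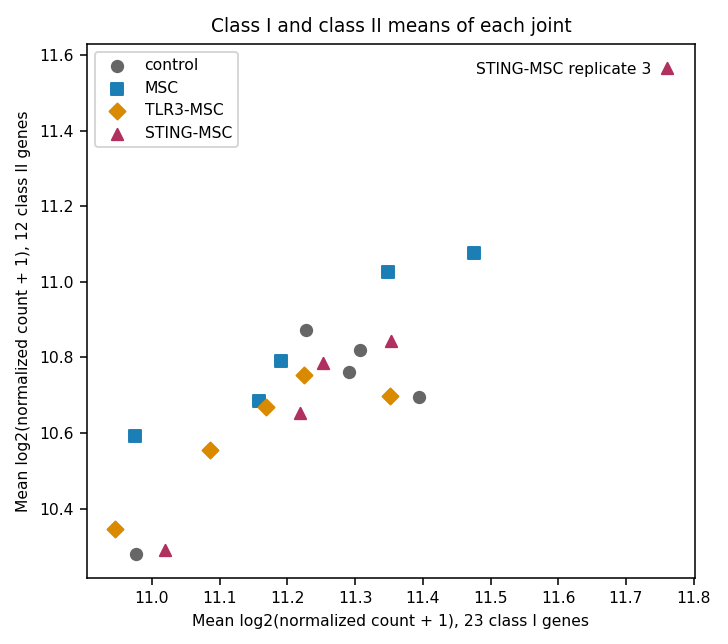
Mean log2(normalized count + 1) of the 12 class II genes (vertical axis) against that of the 23 class I genes (horizontal axis), 1 point per joint, symbols by group. The groups overlap, and STING-MSC replicate 3 lies apart at 11.76 for class I and 11.57 for class II.

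Transactivator and target transcripts varied together between joints of the same group. For 6 chosen pairs, log2 values minus their group means were correlated over the 20 joints, with 100000 permutations within groups and adjustment over the 6. Ciita and Cd74 had Pearson's r = 0.961 (permutation p = 3e-05, adjusted 9e-05) and Spearman's rho = 0.968 (p = 1e-05, the smallest the permutations can give, adjusted 6e-05). Ciita and H2-Aa had r = 0.931 (permutation p = 8e-05, adjusted 0.00012) and rho = 0.884 (p = 7e-05, adjusted 0.00014). Leaving out STING-MSC replicate 3 and TLR3-MSC replicate 3, the joints farthest from the median of Ciita, gave r = 0.896 and 0.802. Nlrc5 and H2-K1 had r = 0.858 (permutation p = 5e-05, adjusted 0.0001) and rho = 0.755 (p = 0.00057, adjusted 0.000855). Nlrc5 and Psmb9 had r = 0.741 (permutation p = 0.00066, adjusted 0.000792) and rho = 0.638 (p = 0.00652, adjusted 0.00652). Without control replicate 4 and STING-MSC replicate 1, the joints farthest from the median of Nlrc5, r was 0.782 and 0.651.

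The pairs across the classes were correlated as well. Ciita and H2-K1 had r = 0.931 (permutation p = 2e-05, adjusted 9e-05) and rho = 0.908 (p = 5e-05, adjusted 0.00014). Nlrc5 and H2-Aa had r = 0.707 (permutation p = 0.00115, adjusted 0.00115) and rho = 0.66 (p = 0.00263, adjusted 0.00316). Without the farthest 2 joints r was 0.874 and 0.603. Without STING-MSC replicate 3 alone, r over the 6 pairs was 0.677 to 0.913. The 2 genes of a pair share a library, its normalization and the cell makeup of the joint, and the part of each was not tested.

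**Figure D5:**
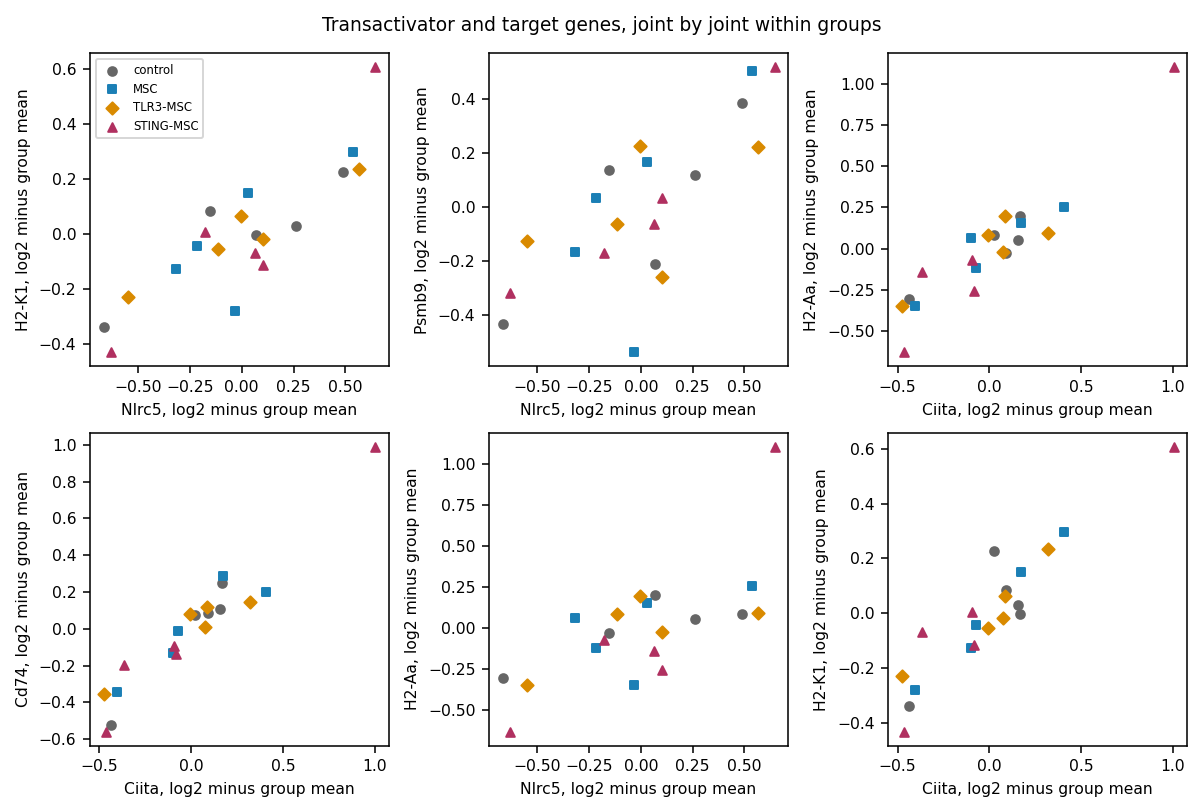
Log2 values minus the group mean for Nlrc5 or Ciita (horizontal axes) and a class I or class II gene (vertical axes) in each of the 20 joints, symbols by group. Nlrc5 with H2-Aa and Ciita with H2-K1 are pairs across the classes. All 6 relations rise, with r from 0.707 (Nlrc5 with H2-Aa) to 0.961 (Ciita with Cd74).

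STING-MSC replicate 3 was also the highest joint for genes that interferon-gamma induces. The summed count of 13 interferon-gamma-induced genes was 29311 in that joint, 4.63 times the median of the other 19 joints, whose sums ranged from 5575 to 10631, and 12 of the 13 were highest there. In it Cxcl9, a chemokine that draws T cells, stood at 2853 against 67.2 to 376 in the others, and Gbp2, a guanylate-binding protein, at 3728 against 323 to 932. Irf1, an activator of class I promoters from a separate list of 12 interferon factors, stood at 2609 against 935 to 1833. All 3 genes were named after their values were seen, and 4 of the 12 interferon factors (33.3%) were highest in that joint. The summed count of 24 type I interferon-stimulated genes stood at 1.27 times the median of the others, rank 2 of the 20 joints. Abundant genes weigh most in a sum, and taken singly 10 of the 24 (41.7%) were highest in that joint, against 2.45% of all genes. The mean log2 difference of that joint from the others was 0.53 over these 24 genes and 2.26 over the 13. Whether these lists tell interferon-gamma from type I interferon was not tested. The lists were chosen with earlier results of these data known. The marker sums in that joint were 1.30 times the median of the others for the 12 B cell markers, 1.30 for the 9 dendritic cell markers, 1.22 for the 10 macrophage markers, 1.39 for the 10 T and NK cell markers and 1.33 for the 8 neutrophil markers. Taken singly, 4 of the 10 macrophage markers were highest in that joint (C1qa, C1qb, C1qc and Fcgr1), 1 of the 12 B cell and 1 of the 9 dendritic cell markers, and 0 of the T and NK cell and neutrophil markers. Of the 6 plasma cell markers 2 were highest there (Jchain and Tnfrsf17), and the sum of the 6 was 1.30 times the median of the others. The part of all these markers in the values of that joint was not tested. Between groups, 0 of the 13 interferon-gamma-induced genes were called in any comparison.

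Genes of the same pathways outside the 36 were called in small numbers. None of them, and none of the cell type markers below, passed an FDR of 0.05 in limma. Of all genes, 8.55% were called in either direction in MSC, 3.58% in TLR3-MSC and 12.2% in STING-MSC against control joints. The share was 4.94% for STING-MSC against MSC, 3.88% for TLR3-MSC against MSC and 2.57% for STING-MSC against TLR3-MSC. Of the 27 calls of pathway genes or cell type markers in comparisons with the STING-MSC group, 18 were kept without STING-MSC replicate 3. The 9 lost were Ifngr1, Pdcd1lg2, Siglech and the neutrophil markers Ly6g, Elane, Camp and Ltf against control, Ifit1 against MSC and Krt10 against TLR3-MSC, with limma p from 0.0509 to 0.143. Marchf1, a ubiquitin ligase that removes class II molecules from the surface, was higher than in control joints in MSC by 0.44 ± 0.14 (log2, SE), in TLR3-MSC by 0.47 ± 0.14 and in STING-MSC by 0.54 ± 0.14. The unadjusted limma p-values were 0.00487, 0.00299 and 0.000847, the FDR values 0.322, 1.0 and 0.274, and the exact permutation p-values 0.0238, 0.00794 and 0.0159. It was the only one of 9 endosomal and turnover genes called. Of 8 other class I and class I-like chains, H2-Q10, a secreted chain made mainly in the liver, was higher in MSC by 0.64 and in STING-MSC by 0.59 than in control joints. Of 7 class II promoter factors, Creb1 was higher in MSC than in control joints by 0.20. Of 17 constitutive proteasome genes, Psma7 was higher in that comparison by 0.15. Of 11 other peptidases and endoplasmic reticulum factors, Thop1, a cytosolic peptidase, was lower in MSC than in control joints by −0.16 and higher in STING-MSC and TLR3-MSC than in MSC joints by 0.16 each, and Sec61g was higher in STING-MSC than in control joints by 0.30.

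Of 12 interferon factors, Ifngr1, a chain of the interferon-gamma receptor, was higher than in control joints in MSC by 0.17 and in STING-MSC by 0.20. The kinase Jak1 was higher in STING-MSC joints than in control by 0.15 and than in MSC by 0.13, and Jak2 higher than in MSC by 0.17. Irf1 was lower in TLR3-MSC than in MSC joints, with a log2 difference of −0.42 (limma p = 0.0459, exact permutation p = 0.00794, the smallest possible). Of 24 type I interferon-stimulated genes, Ifit3b was lower in MSC than in control joints (−0.69) and higher than in MSC joints in TLR3-MSC and STING-MSC (0.65 each). Ifit3 was higher in TLR3-MSC than in MSC joints (0.53), and Ifit1 in STING-MSC than in MSC joints (0.59). Of 6 costimulation genes, Icosl (0.30 and 0.38) and Pdcd1lg2 (0.99 and 0.95) were higher in MSC and in STING-MSC than in control joints, and Cd80 was lower in STING-MSC (−1.09).

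Markers of cells that carry class II molecules were called singly. Of 9 dendritic cell markers, Cd209a was higher in MSC (0.51) and Siglech in STING-MSC (0.62) than in control joints, and Xcr1 was listed at 0 in at least 1 joint. Of 12 B cell markers, Ebf1 was lower in STING-MSC than in control (−0.51) and TLR3-MSC joints (−0.39). Of 10 macrophage markers, Mertk was higher in STING-MSC than in TLR3-MSC joints (0.28). Of 6 plasma cell markers, Sdc1 was lower in STING-MSC than in control joints (−1.14) and Prdm1 higher in TLR3-MSC than in MSC joints (0.45), and of 10 T and NK cell markers 0 were called. Of 8 neutrophil markers, 6 were higher in MSC and 7 in STING-MSC than in control joints, with S100a8 at 0.65 and 0.62 and Mmp8 at 0.61 and 0.55, and 1 in TLR3-MSC. Of all genes, 5.64% were called higher in MSC, 6.54% in STING-MSC and 2.68% in TLR3-MSC joints. None of the 8 markers passed an FDR of 0.05. Without STING-MSC replicate 3, Ly6g, Elane, Camp and Ltf were no longer called in STING-MSC joints. The sums of the 8 markers were 311915 to 540485 in control, 447314 to 738644 in MSC, 406989 to 650573 in TLR3-MSC and 447653 to 672594 in STING-MSC joints. The 9 joint tissue markers were all above 0 in every joint, with 0 called. The 7 skeletal muscle markers summed to 735579 to 3036776 with 0 called, and the 5 keratinocyte markers to 19.2 to 18999, with Krt5 (−5.01) and Krt10 (−2.39) lower in STING-MSC than in TLR3-MSC joints. Krt5, Krt14, Krt1 and Krt15 were listed at 0 in at least 1 joint. Krt5 had a median of 3.37 and a maximum of 3587 outside STING-MSC replicate 3, so its difference involves values near 0. The part of the cell type markers in the values of the class I and class II genes was not tested.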

How the data were processed

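RNA was extracted from whole knee joints, mRNA was enriched with oligo(dT) and libraries were made with the TruSeq kit. The authors aligned reads to GRCm39 with STAR (2.7.3a) and counted them with HTSeq, and the deposited values are a signal, counts per gene divided by a median-ratio size factor per joint. Between 99.8378% and 99.9189% of the values of a joint were whole multiples of 1 read (tolerance 0.1 read). Strand use and any filter on low counts are not given in the sources used here.

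The main test was limma (3.58.1, R 4.3.3) with a mean-variance trend, fitted to log2(value + 1) of 20 joints in 4 groups, without a block. A minimum mean of 5 removed 0 genes. FDR used the Benjamini-Hochberg method over 14793 genes. The exact two-sided permutation test enumerated all splits of 5 joints against 5. The limma test was used in place of the authors' DESeq2, since the deposited values are normalized counts. The settings varied were the pseudocount (0.5 and 5), the minimum mean (20 and none), quantile and TMM normalization, only the groups compared, edgeR's quasi-likelihood test (4.0.16) and DESeq2 (1.42.0) on recovered reads, a block by replicate number, and leaving out every joint once. The procedure was tested on simulated data. Exon lengths came from the GENCODE annotation of GRCm39.

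The members and lists were chosen with earlier results of these data known. All 36 members are accounted for. Per-joint values are given for the main chains, transporter, transactivators and every member called. Other lists are given by counts, with the genes of smallest p. Another promoter motif that was searched is not reported here.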

Additional observations from a re-analysis of the deposited data

Results flagged for a closer look

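In groups of 5 joints, a highest or lowest joint whose gap to its neighbour exceeded 0.71 of the group's range was marked. Of 152 groups tested 14 were marked, and chance marks about 1 in 20 groups. The genes share joints, so the marks are not independent. Within the STING-MSC group, replicate 3 was the highest joint for H2-Aa (15568 normalized counts), H2-Ab1 (16656), H2-Eb1 (12772), Cd74 (27417), H2-DMb1 (1453), Ctss (12085), Ciita (1129), Psmb10 (2235) and Erap1 (1889.5). Within the control group, replicate 4 was the lowest joint for Cd74 (8745), H2-DMa (899), H2-DMb2 (221) and Ciita (344). Within the TLR3-MSC group, replicate 3 was the lowest for H2-Eb1 (3949).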

How the results depend on the processing

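The members called in each comparison changed with the setting. With only the 2 groups compared, TLR3-MSC against MSC gave 5 calls instead of 1 (Cd74, H2-DMa, H2-DMb2, H2-Ob and Tap2, all lower). With the replicate block it gave 0, since Tap2 kept its difference of −0.26 with an unadjusted limma p-value of 0.0523. DESeq2 gave 7 calls instead of 1 for STING-MSC against TLR3-MSC, all higher (Cd74, H2-Aa, H2-Ab1, H2-DMa, H2-DMb1, H2-Q4 and Tap2). In that comparison DESeq2 called 4.57% of all genes in either direction. The share of all genes called for TLR3-MSC against MSC with only the 2 groups compared was 2.32%. The number of members called at an unadjusted p therefore depended on the test. The other 66 of 69 alternative counts that kept all joints gave the reported count or one within 1.5 times of it. The cause of these changes was not tested.

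Leaving out each joint in turn gave 0 to 1 calls for MSC against control, 0 to 0 for TLR3-MSC against control, 0 to 1 for STING-MSC against control, 0 to 2 for STING-MSC against MSC, 0 to 3 for TLR3-MSC against MSC, 0 to 10 for STING-MSC against TLR3-MSC and 0 to 1 in the F test. The 10 calls were reached without STING-MSC replicate 1, where 2.45% of all genes were called in either direction in that comparison. It gave 0 calls without STING-MSC replicate 3 or TLR3-MSC replicate 3, against 2.16% and 2.26% of all genes. Between TLR3-MSC and MSC joints, 3 calls came without MSC replicate 2 or 5, with 9.98% and 6.13% of all genes called. As many came without control replicate 4 or STING-MSC replicate 3, at 3.99% and 3.62%. Between MSC and control joints, 1 call came without MSC replicate 2 or 5, at 16.7% and 13.0%. The same count came without MSC replicate 1 or control replicate 4, at 6.23% and 5.76%. Between STING-MSC and MSC joints, 2 calls came without STING-MSC replicate 1, at 3.91%. Between STING-MSC and control joints, 1 call came without control replicate 1 or 5 or STING-MSC replicate 1, at 15.7%, 14.2% and 10.5%. The F test gave 1 call without STING-MSC replicate 1, at 5.38%. With all joints these shares were 3.88%, 8.55%, 4.94%, 12.2% and 6.42% in the same order. The H2-DMa call was kept in 18 of these 20 fits, and the Tap2 call in 9, being lost without control replicate 1, 2 or 3, MSC replicate 1, 3, 4 or 5, TLR3-MSC replicate 2, 3 or 5, or STING-MSC replicate 4. No member passed the FDR threshold under any setting run. All 6 correlations kept their direction and their side of the threshold in all 144 alternative values, with r from 0.603 to 0.977. Same-numbered joints were different mice, and their deviations from the group means correlated on average by −0.144 to 0.108 over the 6 comparisons, so the numbers were not taken as pairs. The block changed no other call. With 5 joints per group, members with a within-group SD near 0.5 had intervals up to 0.637 on either side on the log2 scale, which limits what could be seen for H2-Q6, H2-Q7 and H2-Oa.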

Other observations

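Of 6 costimulation genes, 3 were highest in STING-MSC replicate 3, namely Cd274, Cd40 and Pdcd1lg2, while Icosl, Cd86 and Cd80 ranked 2, 4 and 10 of the 20 joints there. Cd274 (PD-L1), an inhibitory ligand, had 591 normalized counts in that joint against 124 to 274 in the other 19 joints. Cd40, a costimulatory receptor of antigen-presenting cells, had 553 against at most 373, and Pdcd1lg2 (PD-L2) 37.5 against 3.62 to 26.4. Zbp1, a sensor of nucleic acids, was picked after its values were seen and had 780.0 against 172 to 378, while the sensors Ddx58, Ifih1 and Dhx58 ranked 2, 2 and 4. Of the interferon-gamma-induced genes, Iigp1, an interferon-induced GTPase, had 5052 against 320.0 to 1323, and Cxcl10 619 against 26.5 to 162. The 17 constitutive proteasome and assembly genes summed to 1.02 times the median of the other joints there, and the 7 class II promoter factors to 1.07 times. Socs1, a feedback inhibitor of interferon signalling, was not the highest in that joint and ranked 3.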
